A study of Mus musculus with 6 samples.

Results

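The immunoglobulin kappa variable segments (Igkv genes) were counted in 6 RNA sequencing libraries of Tregs, regulatory T cells, which hold back the responses of other immune cells. They were taken as every gene whose symbol in the mouse annotation starts with Igkv, which gave 160 of the 55573 genes listed: 100 annotated as V genes and 60 as V pseudogenes. Tregs were sorted from the spleen of chimeric mice, labelled bi-parental bone marrow chimeras, whose blood cells grow from transferred marrow. One group of 3 libraries came from wild-type Tregs and the other group of 3 from Tregs labelled Nfkb2-/-, a deletion of the gene for an NF-kB precursor protein. Cells of both groups were rested in medium after the sort and received no treatment. The labels give the purity of sorted cells as above 90%, and age, sex and strain of the animals were not given in the sources used here.

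An immunoglobulin light chain is built when a developing B cell joins 1 V segment to a J segment by cutting and rejoining its DNA, and the joined exon is then spliced to the constant exon. Mice use the kappa light chain, with its constant gene Igkc, much more often than the lambda chain. A B cell and its progeny usually keep 1 productive light chain. The set of V segments read out of a tissue therefore follows which B cells and plasma cells, the antibody-secreting B lineage cells, are in it. T cells rearrange their receptor genes instead, so Igkv messenger RNA in a Treg sort is read here as a measure of B lineage RNA in the sample. Bulk RNA cannot tell fewer cells of a type from less RNA per cell.

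Library totals ran from 12005273 to 17278521 counts. Levels are given as CPM, the usual depth-scaled count, with library sizes scaled by TMM. Nfkb2 was at 268, 323 and 270 CPM in Nfkb2-/- replicates 1, 2 and 3 and at 557, 544 and 555 CPM in wild type, lower in the knockouts but not absent (log2 fold change -0.94, SE 0.134, adjusted p = 0.0203 by edgeR's quasi-likelihood test, adjusted over all genes by Benjamini-Hochberg). Xist, transcribed from the inactive X chromosome of female cells, was at 591 to 881 CPM in Nfkb2-/- and 1.94 to 16.4 CPM in wild type. The summed level of 4 Y-linked genes was 40.0 to 274.6 CPM against 464 to 497 CPM. Sex-linked expression and genotype therefore cannot be told apart. Wild-type replicate 1 stood apart from the rest: across genes, which are no independent replicates, its log2 CPM had r = 0.949 to 0.962 with the rest. The remaining pairs had r = 0.974 to 0.993. The Treg gene Foxp3 was at 406 to 621 CPM and the T cell receptor gene Cd3e at 174 to 262 CPM over the 6 libraries, with overlap between genotypes.

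The sequences of 5 segments carry most of what follows. Each is the last 90 bases of the V exon, 5′ to 3′, copied from the GENCODE M21 transcripts of GRCm38. Capitals mark the bases after the conserved cysteine codon, the germline start of the third complementarity-determining region, the loop at the joint with the J segment. Igkv4-55 was the most abundant segment in 4 libraries, Igkv1-110 in 1 and Igkv5-39 in 1. Igkv4-74 was found almost in 1 library alone, and Igkv15-103 was the segment that passed the test between genotypes.
Igkv4-55, chr6:69607275-69607364, minus strand: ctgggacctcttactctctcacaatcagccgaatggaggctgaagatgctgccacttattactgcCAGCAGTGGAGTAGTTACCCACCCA
Igkv4-74, chr6:69184826-69184915, minus strand: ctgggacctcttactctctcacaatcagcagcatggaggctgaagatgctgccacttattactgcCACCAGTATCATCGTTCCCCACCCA
Igkv5-39, chr6:69900424-69900513, minus strand: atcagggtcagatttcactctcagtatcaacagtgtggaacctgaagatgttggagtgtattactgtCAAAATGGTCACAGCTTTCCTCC
Igkv1-110, chr6:68271178-68271267, plus strand: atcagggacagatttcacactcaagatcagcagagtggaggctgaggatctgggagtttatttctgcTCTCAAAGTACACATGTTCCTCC
Igkv15-103, chr6:68437836-68437925, plus strand: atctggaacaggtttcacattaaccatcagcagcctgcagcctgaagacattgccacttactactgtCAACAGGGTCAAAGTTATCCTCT

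The first pair shows how close members of a family are. The transcripts of Igkv4-55 and Igkv4-74 were 92.6% identical. The segment nearest to Igkv4-55 was Igkv4-68, at 95.8% identity, and Igkv1-110 and Igkv1-117 were 97.5% identical. Of all windows of 50 bases in the transcript, 46.7% in Igkv4-55 and 49.1% in Igkv1-110 occurred in no annotated transcript of another gene, against 100% in Igkv5-39 and Igkv15-103. Read length and the treatment of reads with several matches are not given in the sources used here. Counts of Igkv4-55, Igkv1-110 and other members with near copies are therefore uncertain as counts of 1 segment.

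Igkv RNA was present in every library, and far more of it in wild-type replicates 2 and 3 than elsewhere. The summed Igkv counts were 465, 604 and 592 in Nfkb2-/- replicates 1, 2 and 3, and 625, 1955 and 2247 in wild-type replicates 1, 2 and 3. Scaled to library size these were 38.4, 42.4 and 48.1 CPM in Nfkb2-/- and 33.6, 154 and 188 CPM in wild type. The genotypes overlapped, because wild-type replicate 1 held the lowest level of all 6 libraries. Exact 95% Poisson intervals, which like all intervals here cover counting error only, were 31.0 to 36.4 CPM for wild-type replicate 1 and 35.0 to 42.0 CPM for Nfkb2-/- replicate 1, the next in order. The Nfkb2-/- mean was 43.0 ± 4.88 CPM and the wild-type mean 125.5 ± 81.3 CPM (SD, n = 3 each). The mean log2 CPM of Nfkb2-/- minus that of wild type was -1.21, and -1.99 without wild-type replicate 1. No test was made of this sum over members chosen with earlier results of these data known.

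**Figure D1:**
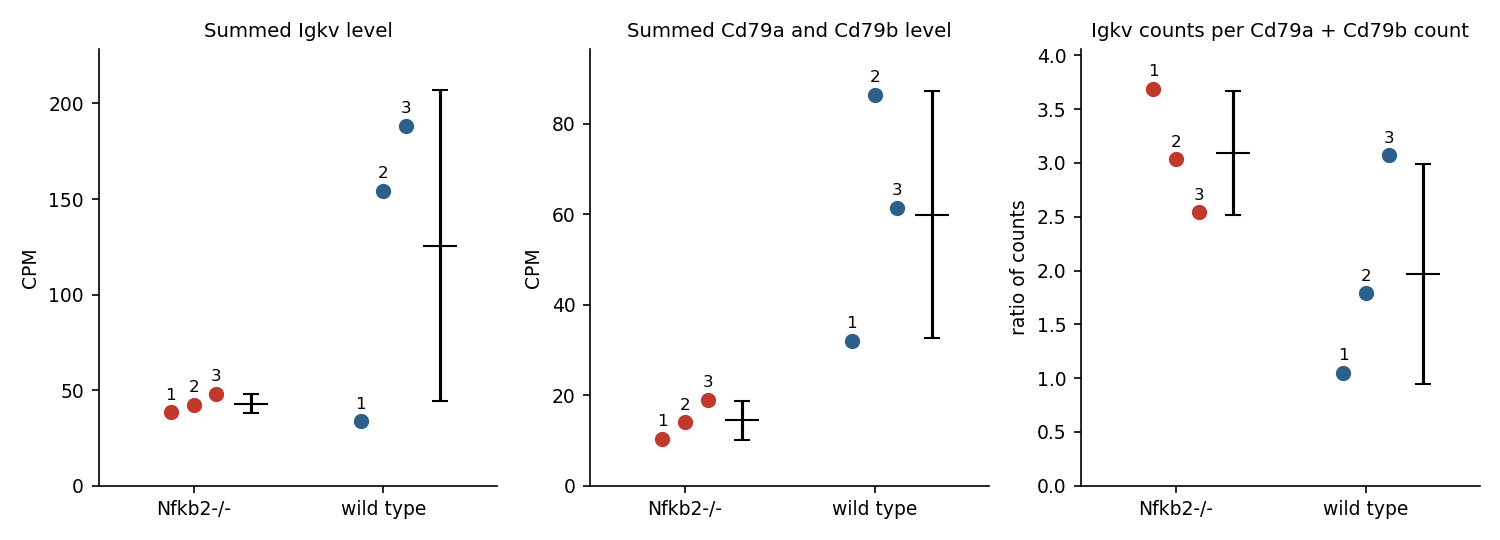
Summed Igkv level in CPM (left), summed level of the B cell receptor genes Cd79a and Cd79b in CPM (middle) and Igkv counts per count of these genes (right), with 1 point per library labelled by its replicate number and the mean ± SD of 3 libraries beside it. Wild-type replicate 1 lies at 33.6 CPM in the left panel, below the Nfkb2-/- libraries, and at 32.0 CPM in the middle panel, above them.

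Other B lineage transcripts did not follow the Igkv sum in every library. Cd79a and Cd79b, the signalling chains of the B cell receptor, summed to 10.4, 14.0 and 18.9 CPM in Nfkb2-/- and to 32.0, 86.4 and 61.4 CPM in wild type, with no overlap. Most other B cell markers did not overlap either, with wild type higher, but Cd22 and Blk did. Cd22 was at 8.75 to 12.8 CPM in Nfkb2-/- and at 3.87, 27.3 and 23.5 CPM in wild type. Blk was at 3.22 to 7.07 CPM and at 4.30, 30.3 and 15.0 CPM. Igkv counts per Cd79a and Cd79b count were 3.69, 3.04 and 2.54 in Nfkb2-/- and 1.05, 1.79 and 3.07 in wild type. Wild-type replicate 1 had the lowest ratio, and wild-type replicate 3 lay among the Nfkb2-/- libraries. The mean ratio was 3.09 ± 0.577 in Nfkb2-/- and 1.97 ± 1.02 in wild type (SD, n = 3 each).

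Against the whole list of 19 B cell markers the order of the genotypes turned. Igkv counts per marker count were 0.222, 0.220 and 0.202 in Nfkb2-/- and 0.185, 0.303 and 0.523 in wild type. Cd81 and Cd72, membrane proteins of B cells of which Cd81 is also made by T cells, held 65.5% to 75.0% of the marker counts in Nfkb2-/- and 17.6% to 33.3% in wild type. Cd81, a tetraspanin, was higher in Nfkb2-/- (log2 fold change 1.02, SE 0.162, edgeR quasi-likelihood test, adjusted p = 0.0286). Without these genes the ratio was 0.887, 0.676 and 0.586 in Nfkb2-/- and 0.277, 0.367 and 0.713 in wild type. The markers summed to 173 to 238 CPM in Nfkb2-/- and 182 to 510 CPM in wild type, and none of the 19 was at 0 in all libraries.

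Jchain and Igha, transcripts tied to antibody secretion, were high in the same libraries as the Igkv sum. The IgG constant genes were not high in both of these libraries. Jchain, the joining chain of secreted IgA and IgM, was at 9.16, 14.3 and 15.4 CPM in Nfkb2-/- and at 10.8, 67.8 and 85.3 CPM in wild type. Igha, the constant gene of IgA and named after its values were seen, was at 16.1, 20.7 and 32.0 CPM in Nfkb2-/- and at 14.4, 170 and 314 CPM in wild type. As in the Igkv sum, wild-type replicates 2 and 3 were high in both genes and wild-type replicate 1 lay within or below the Nfkb2-/- range. Log2 fold changes were -2.07 for Jchain and -2.85 for Igha (edgeR adjusted p = 0.199 and 0.198). Without wild-type replicate 1, the wild-type library lowest in both genes, the edgeR adjusted p was 4.5e-05 for Jchain and 0.0129 for Igha. That fit called 4.44% of all genes tested lower and 4.6% higher. With any other library left out the edgeR adjusted p was 0.316 to 0.545 for Jchain and 0.28 to 0.592 for Igha. Ighg2b, Ighg2c and Ighg3, constant genes of IgG, had log2 fold changes of -0.20, 0.27 and -0.20 and overlapped between genotypes (edgeR adjusted p = 0.893, 0.848 and 0.862). Ighg1 and Ighg2c were at their lowest in wild-type replicate 3, at 1.01 and 2.85 CPM, where Igha was highest. In wild-type replicate 2 Ighg1 was at its highest, 6.87 CPM against 1.01 to 3.39 CPM elsewhere (log2 fold change -0.61, edgeR adjusted p = 0.782). There Ighg2b and Ighg2c, at 13.9 and 8.37 CPM, were below Nfkb2-/- replicate 1 only. Among the plasma cell markers, Mzb1, a chaperone of antibody assembly, had 0 to 4 counts per library. Sdc1, the surface proteoglycan CD138, had 21, 31 and 37 counts in Nfkb2-/- and 78, 77 and 34 in wild type. Its level did not follow Jchain and Igha in every library. In wild-type replicate 3, highest in both genes, Sdc1 was at 2.85 CPM, below Nfkb2-/- replicate 3 at 3.01 CPM. In wild-type replicate 1 it lay above all Nfkb2-/- libraries, and it was highest in wild-type replicate 2, at 6.08 CPM. Transcription factors among the plasma cell markers were abundant, with 2248 to 2776 counts of Xbp1 and 1334 to 4927 of Irf4, which activated T cells also express. Of 9 plasma cell markers tested, 0 rose and 0 fell (edgeR, adjusted p), where 1.01% of all genes tested rose and 0.405% fell, so the count does not set the list apart. Their median log2 fold change was -0.41.

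Most segments that could be seen were functional V genes, and they were many. A count in at least 1 library was found for 97 of the 160 members, 89 of the 100 V genes and 8 of the 60 pseudogenes, and 44 members had a count in all 6 libraries. The pseudogenes together held 13 of 6488 Igkv counts. Segments with a count numbered 63, 53 and 70 in Nfkb2-/- and 60, 82 and 77 in wild type. This number grows with depth, so each library was rarefied to 465 Igkv counts, the smallest sum, by the exact expectation. That gave 63.0, 50.9 and 66.3 segments in Nfkb2-/- and 55.9, 65.6 and 62.0 in wild type. The mean was 60.1 ± 8.11 segments in Nfkb2-/- and 61.2 ± 4.88 in wild type (SD, n = 3 each), a difference smaller than the spread between libraries.

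Evenness differed more between libraries than the number of segments did. The effective number of segments, an inverse Simpson index corrected for depth that gives the number of equally used segments of the same evenness, was 24.8, 6.40 and 18.8 in Nfkb2-/- and 17, 34.5 and 23.8 in wild type. Nfkb2-/- replicate 2 was the least even and wild-type replicate 2 the most even. The most abundant 10 segments held 51.8%, 70.2% and 61.3% of Igkv counts in Nfkb2-/- and 61.1%, 44.1% and 51.0% in wild type. The genotype means of the effective number were 16.7 ± 9.4 and 25.1 ± 8.81 (SD, n = 3 each), with overlap. The log2 ratio of Nfkb2-/- to wild type was -0.74, and -0.16 without Nfkb2-/- replicate 2.

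**Figure D2:**
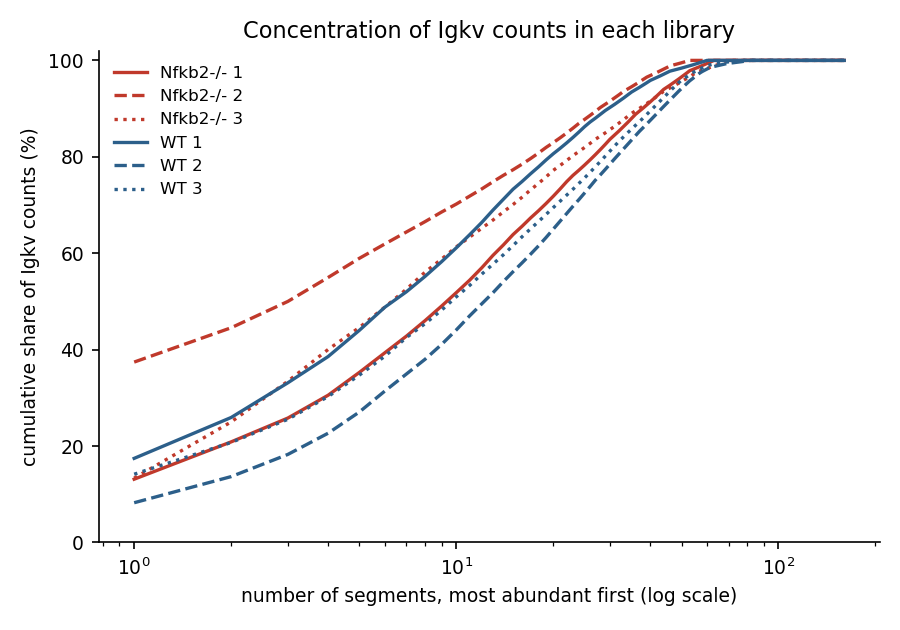
Cumulative share of Igkv counts in percent against the number of segments, counted from the most abundant on a log scale, with 1 line per library. The line of Nfkb2-/- replicate 2 starts at 37.4%, and the other 5 lines start between 8.24% and 17.4%.

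The leading segments were shared between libraries, but their shares were not. Igkv4-55 was the largest in all 3 Nfkb2-/- libraries and in wild-type replicate 1. It had 61, 226 and 79 counts in Nfkb2-/- and 109, 106 and 30 in wild type, or 5.04, 15.9 and 6.42 CPM and 5.86, 8.37 and 2.52 CPM. In Nfkb2-/- replicate 2 it held 37.4% of Igkv counts (exact 95% interval 33.5% to 41.4%), against 13.1% and 13.3% in the other Nfkb2-/- libraries and 17.4%, 5.42% and 1.34% in wild type. Its CPM did not separate the genotypes (log2 fold change 0.71, SE 0.535, edgeR adjusted p = 0.647). Without Nfkb2-/- replicate 2 the log2 fold change was 0.04.

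Igkv5-39 showed the same kind of excess in a wild-type library. It had 23, 43 and 39 counts in Nfkb2-/- and 45, 57 and 318 in wild type, or 1.90 to 3.17 CPM and 2.42, 4.50 and 26.7 CPM. Wild-type replicate 3 held 64.0% of its depth-scaled counts, and there it made up 14.2% of Igkv counts (exact 95% interval 12.7% to 15.7%), against 2.92% to 7.2% elsewhere. Its log2 fold change was -2.03 (SE 0.839, edgeR adjusted p = 0.345), and -0.35 without wild-type replicate 3.

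Igkv1-110 held a similar share in all libraries. It had 22, 30 and 50 counts in Nfkb2-/- and 53, 161 and 148 in wild type, which made 4.73% to 8.45% and 6.59% to 8.48% of Igkv counts. Its level was 1.82, 2.11 and 4.06 CPM in Nfkb2-/- and 2.85, 12.7 and 12.4 CPM in wild type, so its level was high in the libraries where the Igkv sum was high. Igkv3-4 was high in Nfkb2-/- replicate 3, where its 69 counts made 11.7% of Igkv counts, against 2.36% to 5.46% elsewhere. Igkv6-15 had 36, 24 and 10 counts in Nfkb2-/- and 85 and 88 in wild-type replicates 2 and 3, but 1 count in wild-type replicate 1. The log2 fold change of neither segment passed the test (-0.36 for Igkv3-4 and -1.35 for Igkv6-15, edgeR adjusted p = 0.881 and 0.671). Without wild-type replicate 1 that of Igkv6-15 was -1.95 (edgeR adjusted p = 0.00977). With any other library left out its edgeR adjusted p was 0.673 to 0.988.

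Scaled by exonic length, which ran from 347 to 404 bases among these segments, the order of the means over 6 libraries was Igkv4-55 with 14.4% of Igkv RNA, Igkv5-39 with 7.63%, Igkv1-110 with 6.38%, Igkv3-4 with 5.34% and Igkv6-15 with 3.87%. The next were Igkv1-117 (3.59%), Igkv10-96 (3.40%), Igkv1-135 (2.61%), Igkv3-2 (2.43%) and Igkv4-57-1 (2.36%). The order is one of means and did not hold library by library. By length-scaled share Igkv4-55 ranged from 36.7% in Nfkb2-/- replicate 2 to 1.30% in wild-type replicate 3, where it was below all but 1 of the 10. Igkv4-57-1 had a similar level in both genotypes, with 0.843 to 1.82 CPM in Nfkb2-/- and 0.753 to 1.42 CPM in wild type, although the Igkv sum was much higher in wild-type replicates 2 and 3.

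**Figure D3:**
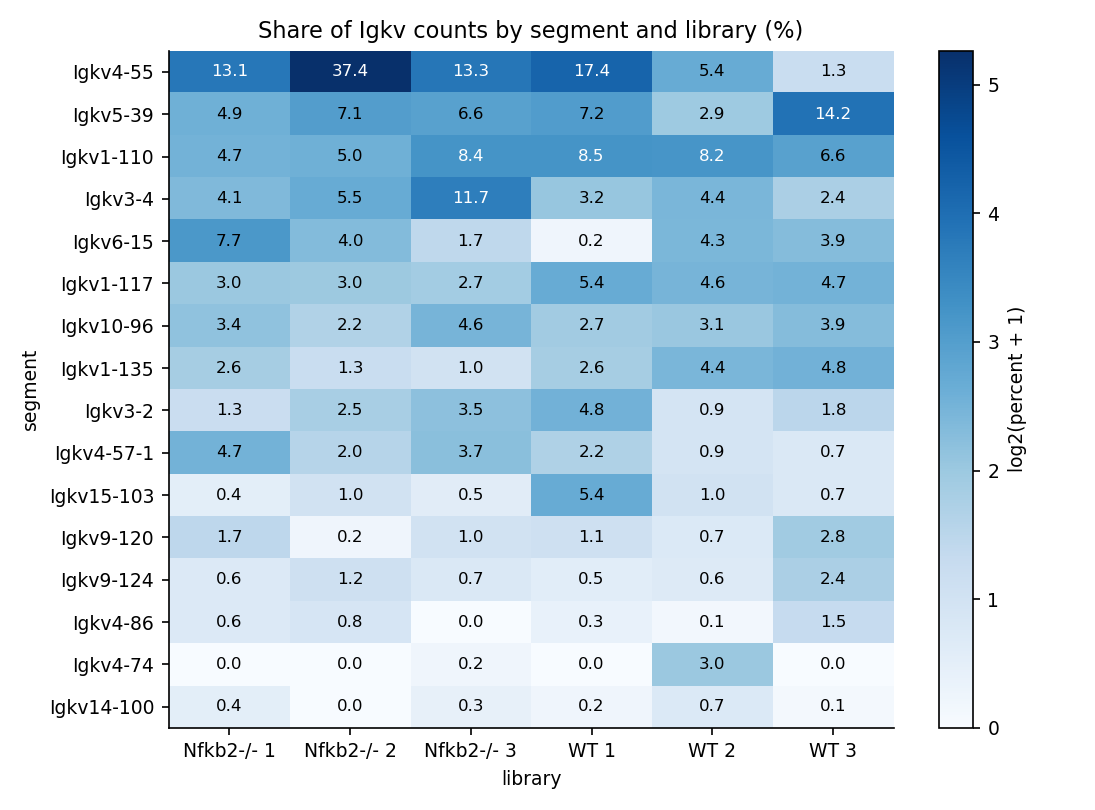
Share of Igkv counts in percent for the 16 segments named by rule (rows) in each library (columns), shaded by log2(percent + 1). Igkv4-55 reads 37.4 in Nfkb2-/- replicate 2, Igkv5-39 reads 14.2 in wild-type replicate 3, and Igkv4-74 reads 3.0 in wild-type replicate 2 and at most 0.2 elsewhere.

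Some less abundant segments came almost from 1 library. Of 57 segments with at least 20 counts in all, 19 had more than 50% of their depth-scaled counts in a single library. Igkv4-74 was the extreme, with 59 counts in wild-type replicate 2, 1 in Nfkb2-/- replicate 3 and 0 in the other 4 libraries. A count of 0 allows up to 0.161 to 0.252 CPM in those libraries at a limit of 3 counts, against 4.66 CPM in wild-type replicate 2. Wild-type replicate 3 held most of the counts of Igkv4-86 (33 of 45), Igkv9-124 (53 of 82) and Igkv9-120 (63 of 98), and wild-type replicate 2 those of Igkv14-100 (13 of 20).

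The make-up of Igkv counts differed between all pairs of libraries by more than counting error. The chi-square per degree of freedom over segments, 1 where counting error alone is at work, was 2.78 to 3.65 between Nfkb2-/- libraries, 6.01 to 9.25 between wild-type libraries and 3.18 to 14.3 between genotypes. This ratio grows with the number of counts, which was larger in wild-type replicates 2 and 3. Unlikeness was also taken as the share of Igkv counts that would have to move between segments to make the libraries of a pair alike. This share was 29.7% for wild-type replicates 2 and 3, the most alike pair. For Nfkb2-/- replicate 2 and wild-type replicate 3, the least alike, it was 46.0%. Counting error raises this share where counts are few, and wild-type replicates 2 and 3 had the most Igkv counts.

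Between genotypes, 1 segment passed the test across all genes. Of 22 Igkv members that passed the filter on low counts, Igkv15-103 fell and 0 rose (adjusted p under 0.05, edgeR), while 0.405% of all 13347 genes tested fell and 1.01% rose. At an unadjusted p under 0.05, 8 of the 22 differed, all lower in Nfkb2-/-, while 13.6% of all genes tested differed and 6.35% were lower. Igkv15-103 had 2, 6 and 3 counts in Nfkb2-/- and 34, 20 and 16 in wild type, or 0.165, 0.421 and 0.244 CPM and 1.83, 1.58 and 1.34 CPM. All wild-type libraries lay above all Nfkb2-/- libraries, wild-type replicate 1 included, where this segment made 5.44% of Igkv counts. Its log2 fold change was -2.46 (SE 0.443, edgeR adjusted p = 0.0447). The adjusted p was 0.0617 with the replicate number as a block. It was 0.0938 to 0.266 when any library other than wild-type replicate 1 was left out.

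Among the other tested segments, 5 had levels that did not overlap between genotypes without passing the adjusted test. No overlap with the Nfkb2-/- libraries lower was seen in 6 of the 22 members in all and in 9.89% of all genes tested, and with Nfkb2-/- higher in 0 of the 22 and in 10.8% of all genes. Igkv8-28 had 0, 0 and 3 counts in Nfkb2-/- and 20, 19 and 23 in wild type, a depth-scaled ratio of wild type to Nfkb2-/- of 18.5 (exact 95% counting interval 6.04 to 92.1; edgeR adjusted p = 0.0645). Log2 fold changes were -3.37 for Igkv8-27, -2.24 for Igkv1-117 and -2.70 for Igkv8-30 (edgeR adjusted p = 0.0934, 0.12 and 0.121). Igkv19-93 had 12, 7 and 11 counts in Nfkb2-/- and 19, 22 and 25 in wild type (-1.02, edgeR adjusted p = 0.367). Igkv1-135, at 0.488 to 0.991 CPM in Nfkb2-/- and 0.861 to 9.05 CPM in wild type, overlapped (-3.01, edgeR adjusted p = 0.146). The median log2 fold change of the 22 members was -1.66, with 20 below 0, against a median of -0.03 over all genes tested, of which 55.0% were below 0. Members pass the filter more easily where 1 group is high, so these 22, which held 65.8% of Igkv counts, do not stand for the 160.

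The number of segments called rested on wild-type replicate 1. Without it, 33 of 46 tested members fell, while 4.44% of genes tested fell and 4.6% rose. The filter admitted these 46 in place of 22, but only 23 without wild-type replicate 2 or 3. Members pass it more easily where 1 group is high, so the 33 of 46 cannot be set evenly against the share of all genes. With any single library other than wild-type replicate 1 left out, 0 of 23 to 46 members passed the edgeR test. Those fits called only 1 to 10 genes lower and 6 to 56 higher among 13744 to 13795 tested. A count of 0 members there does not set the segments apart. DESeq2 called 7 of 22 lower, where 1.89% of genes tested were lower and 3.21% higher, and limma-voom called 2 lower, where 0.315% were lower and 1.08% higher. The edgeR fit with no count filter called 6 of 97 lower, where 0.642% of genes were lower and 1.08% higher. With the replicate number as a block edgeR called 0, where 0.697% of genes were lower and 1.47% higher. In that fit 11 members had an unadjusted p under 0.05, as did 16.8% of genes. None of these 5 fits called a member higher.

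Segments are numbered by family, a grouping by sequence likeness. The Igkv4 family, with 33 members, took the largest share in every library but wild-type replicate 3 and held 28.2%, 45.7% and 25.8% of Igkv counts in Nfkb2-/- and 28.2%, 21.6% and 14.1% in wild type. Of 17 families with a count, 2 had shares that did not overlap between genotypes, both lower in Nfkb2-/-. Among all genes tested, CPM did not overlap in 9.89% with Nfkb2-/- lower and in 10.8% with it higher. Beside these, 2 of 17 does not set the families apart. The Igkv8 family held 5.81%, 2.98% and 3.04% in Nfkb2-/- and 10.9%, 9.72% and 7.08% in wild type. The Igkv1 family held 11.6%, 10.1% and 13.2% in Nfkb2-/- and 16.6%, 18.8% and 17.1% in wild type. Shares sum to a whole, so 1 large segment lowers the rest. After Igkv4-55 and Igkv5-39 were left out, the Igkv8 family held 3.8% to 7.09% and 8.37% to 14.4%, and the Igkv1 family 14.2% to 18.2% and 20.3% to 22.1%. These shares are descriptions without a test.

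The members lay on chromosome 6 between 67555497 and 70704177 (GRCm38), all on the same side of the J segments, with the nearest 18.4 kb from Igkj1. Divided into 4 equal groups by distance from Igkj1, the farthest 40 segments, 2.26 to 3.17 Mb away, held 22.6%, 17.4% and 19.6% of Igkv counts in Nfkb2-/- and 28.6%, 30.4% and 28.3% in wild type. The genotypes did not overlap in this group and overlapped in the other 3, which is a description without a test. Among all genes tested, CPM did not overlap in 9.89% with Nfkb2-/- lower and in 10.8% with it higher. Beside these, 1 of 4 groups does not set position apart. After Igkv4-55 and Igkv5-39 were left out the shares of the farthest group were 24.5% to 31.3% in Nfkb2-/- and 33.1% to 38% in wild type. Igkv1-110, Igkv1-117, Igkv1-135 and Igkv15-103 all lie in this farthest group. The 85 members on the minus strand, which join to J segments by inversion of the DNA between them, held 56.6% to 72.5% of Igkv counts in Nfkb2-/- and 56.5% to 61.7% in wild type.

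**Figure D4:**
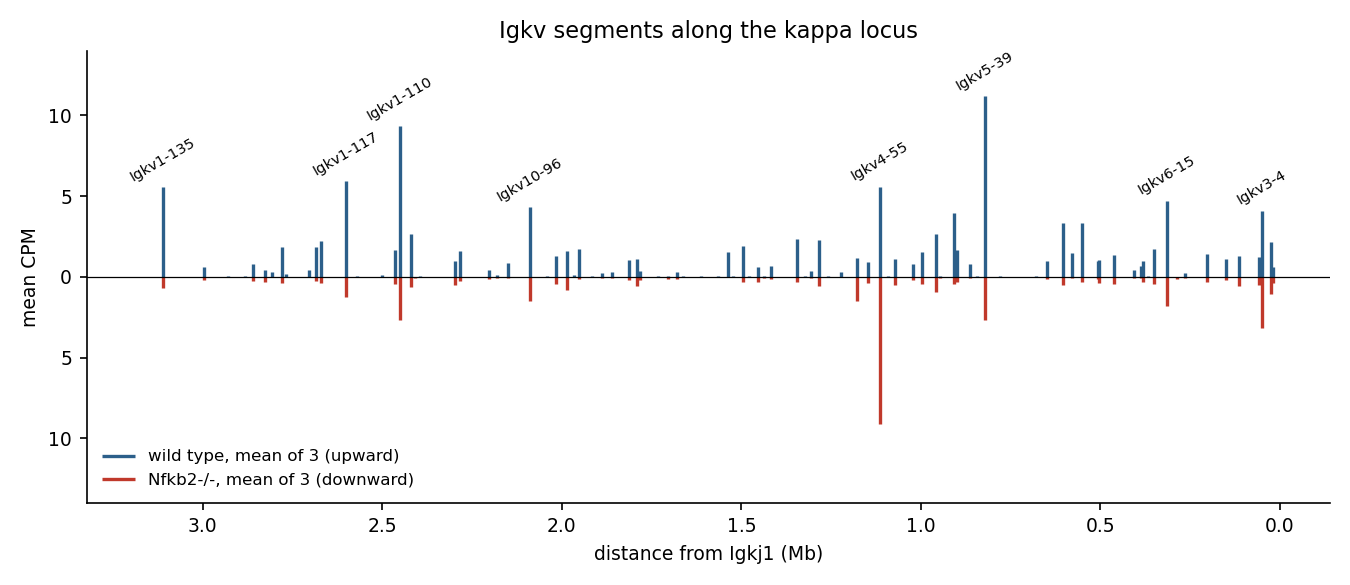
Mean level in CPM of each Igkv segment at its distance from Igkj1 in Mb, with the mean of 3 wild-type libraries drawn upward and that of 3 Nfkb2-/- libraries downward, and the 8 segments of highest summed mean named. Igkv5-39 is the tallest wild-type line, with 26.7 CPM in replicate 3 alone, and Igkv4-55 the tallest Nfkb2-/- line, with 15.9 CPM in replicate 2.

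The constant gene Igkc, to which every kappa V segment is spliced, followed the Igkv sum. It had 1164, 1330 and 1248 counts in Nfkb2-/- and 1037, 3778 and 4232 in wild type, or 96.1, 93.4 and 101 CPM and 55.8, 298 and 355 CPM. There were 2.50, 2.20 and 2.11 Igkc counts per Igkv count in Nfkb2-/- and 1.66, 1.93 and 1.88 in wild type, so this ratio was higher in every Nfkb2-/- library. Igkc did not pass the test (log2 fold change -1.28, SE 0.553, edgeR adjusted p = 0.365). Without wild-type replicate 1, the library lowest in Igkc, its log2 fold change was -1.75 (edgeR adjusted p = 2.5e-06). With any other library left out the edgeR adjusted p of Igkc was 0.49 to 0.766. The J segments gave 0 to 19 counts each per library, of which Igkj5 had the most in every library with 6, 13 and 8 counts in Nfkb2-/- and 13, 19 and 10 in wild type.

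Lambda light chain counts did not overlap between genotypes, with wild type higher. The lambda constant genes Iglc1, Iglc2 and Iglc3 had 36, 41 and 56 counts together in Nfkb2-/- and 126, 258 and 338 in wild type. The kappa share of constant-gene counts was 97.0%, 97.0% and 95.7% in Nfkb2-/- and 89.2%, 93.6% and 92.6% in wild type, with no overlap. Exact 95% intervals were 94.5% to 96.7% for Nfkb2-/- replicate 3 and 92.8% to 94.3% for wild-type replicate 2, the closest pair. The mean was 96.6% ± 0.75 in Nfkb2-/- and 91.8% ± 2.33 in wild type (SD, n = 3 each). Of 3 lambda segments tested, Iglv2 fell (log2 fold change -2.87, SE 0.508, edgeR adjusted p = 0.0423, 0.0507 with the replicate block, and 0.0911 by limma-voom), from 34, 50 and 63 counts in wild type to 7, 8 and 4. When any library other than wild-type replicate 1 was left out its edgeR adjusted p was 0.109 to 0.226. Iglv1 and Iglv3 had log2 fold changes of -2.40 and -2.64 (edgeR adjusted p = 0.123 and 0.149). In the main fit 0.405% of all genes tested fell and 1.01% rose.

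Most genes of B cell identity had log2 fold changes below 0 in Nfkb2-/-, but few passed the test. Of 18 B cell markers tested, 2 fell and 1 rose (edgeR, adjusted p), while 0.405% of all genes tested fell and 1.01% rose. Log2 fold changes were below 0 in 17 of the 18, with a median of -2.27, and in 55.0% of all genes tested. Cd79a had 42, 70 and 93 counts in Nfkb2-/- and 373, 613 and 424 in wild type (log2 fold change -2.70, edgeR adjusted p = 0.023). The member that rose was Cd81. The edgeR adjusted p of Cd79a and of Cd81 was above 0.05 when any library but wild-type replicate 1 was left out. Without that library Cd79b and Ms4a1 also passed (edgeR adjusted p = 0.000449 and 0.000463). With any other library left out they did not (edgeR adjusted p = 0.274 to 0.491 and 0.144 to 0.307). Cd79b and Ms4a1, which encodes CD20, had log2 fold changes of -1.46 and -2.49 (edgeR adjusted p = 0.15 and 0.0609, the latter 0.0236 with the replicate block). The heavy chain gene Ighd, of naive B cells, was at 7.27, 14.2 and 12.5 CPM in Nfkb2-/- and at 23.5, 51.6 and 33.1 CPM in wild type (-1.67, edgeR adjusted p = 0.0672, or 0.0153 with the block). Ighm, the heavy chain of IgM, was at 493 to 539 CPM in Nfkb2-/- and 257, 705 and 775 CPM in wild type.

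Factors that bind the octamer element of immunoglobulin promoters gave no called gene among 3 tested, where 0.405% of all genes tested fell and 1.01% rose. Pou2f2, which encodes OCT2, and Pou2af1, its B cell coactivator, had log2 fold changes of -0.65 and -1.99 (edgeR adjusted p = 0.172 and 0.0577, the latter 0.0236 with the block). Without wild-type replicate 1 both passed (edgeR adjusted p = 0.0253 and 0.00088). With any other library left out neither did (edgeR adjusted p = 0.161 to 0.545 and 0.103 to 0.265). Among 6 genes of rearrangement and the surrogate light chain in developing B cells, Rag2, Vpreb2 and Igll1 had 0 counts in every library, Rag1 had 0 or 1 and Vpreb1 0 to 4. Dntt, which adds bases at rearranging joints, had 8, 9 and 5 counts in Nfkb2-/- and 21, 23 and 7 in wild type, at most 1.82 CPM. Markers of myeloid cells summed to 19.5 to 41.0 CPM in Nfkb2-/- and 15.1 to 65.0 CPM in wild type, with 0 of 6 tested called. Erythroid markers summed to 22.3 to 41.3 and 32.4 to 58.8 CPM, with 0 of 4 called, and 3 NK cell markers to 0.503 to 1.66 CPM over all libraries. The CD8 T cell genes Cd8a and Cd8b1 summed to 10.4 to 13.7 and 13.3 to 22.7 CPM, with 0 of 2 called. Dendritic cell markers summed to 88.5 to 128 CPM in Nfkb2-/- and 23.6 to 57.2 CPM in wild type, with no overlap and 1 of 4 called. That gene was Zbtb46, a transcription factor of conventional dendritic cells, which rose (log2 fold change 1.87, edgeR adjusted p = 0.0355) and held most of the list's counts in Nfkb2-/-. It was named after its values were seen. Zbtb46 alone was at 86.6 to 118 CPM in Nfkb2-/- and 16.5 to 42.0 CPM in wild type. The other 3 dendritic cell markers tested had log2 fold changes below 0, from -1.54 to -0.24, and each overlapped between genotypes. Levels of B cell markers and of Igkv segments both differed between libraries as given above, and the part of B lineage cell number in the differences between genotypes was not tested.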

How the data were processed

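The deposited tables hold raw counts per gene, 1 table a library. Tools named in the submitters' processing notes are FastQC, HISAT2, HTSeq and DESeq2, with the build GRCm38. Versions, counting mode and read length are not given in the sources used here. The series' design text describes unstranded libraries, so genes on opposite strands that overlap cannot be told apart. GENCODE M21 (GRCm38) gave symbols, positions and transcripts for 55394 of 55573 identifiers.

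The test was edgeR's robust quasi-likelihood fit (edgeR 4.0.16, R 4.3.3) with genotype as the only term, after filterByExpr and TMM scaling. P-values were adjusted by Benjamini-Hochberg across every tested gene, and calls made under 0.05. SE is the log2 fold change divided by the root of F. Members, lists and the naming rule were chosen with earlier results of these data known. The rule names the 3 largest segments of each library by count per length, the 10 largest by mean length-scaled share, those called, and 6 concentrated in 1 library. Igkv8-28, Igkv8-27, Igkv8-30, Igkv19-93 and the genes Igha, Cd81, Cd72, Cd22, Blk, Dntt, Xbp1, Irf4, Zbtb46 and those of IgG lie outside it and were chosen after their values were seen. The values of 1 B cell marker are not reported here. Intervals are exact (Poisson, or Clopper-Pearson for shares), at 95%.

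Same-numbered libraries correlated in their deviations from genotype means at 0.364, 0.267 and 0.111, each over 0.1. The replicate number was therefore used as a block in an alternative fit, from the data and not the labels. The main test did not use it. Nfkb2-/- replicate 3 correlated better with wild-type replicate 2 (0.251) than with its own number. Every library pair differed by more than counting error (lowest chi-square per degree of freedom 4.97). The labels call the libraries biological repeats. In counts simulated for 13347 genes, edgeR found 3 of 50 genes at a fold change of 1.5, 22 of 50 at 2, 39 of 50 at 4 and 49 of 50 at 8. Of its 121 calls 8 were false. The changed genes were drawn from all levels and no library was set apart, so these rates need not hold for segments with few counts. Alternatives were other scalings, filters and tools (DESeq2 1.42.0, limma-voom 3.58.1), the block, each library left out, other diversity measures and other marker sets.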

Additional observations from a re-analysis of the deposited data

How the results depend on the processing

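The test across all genes called 54 genes lower and 135 higher in Nfkb2-/-. It called 174 and 292 with no count filter, 252 and 428 by DESeq2, and 93 lower with the replicate block. With each library left out in turn the numbers ran from 1 to 606 lower and 6 to 628 higher, the highest both without wild-type replicate 1. Igkv members called lower numbered 1, against 6 with no count filter, 7 by DESeq2, 2 by limma-voom, 0 with the replicate block and 0 to 33 with each library left out. Among single segments, the log2 fold change of Igkv6-15 turned from -1.35 to 0.41 in limma-voom and that of Igkv3-4, -0.36, turned to 0.21 without wild-type replicate 2 and ran from -1.06 to 0.21 with each library left out. None of these passed the test. The log2 ratio of Igkv counts per B cell marker count, Nfkb2-/- to wild type, was -0.52 with the full list, 0.77 with Cd79a and Cd79b only and 0.76 without Cd81 and Cd72, an alternative added after seeing the data. In Nfkb2-/- most of the full list's counts are Cd81 and Cd72. The kappa share was higher in Nfkb2-/- by 4.78 percentage points over constant genes and by 6.89 over variable segments. The log2 ratio of the Igkv sum ran from -1.99 to -0.75 with each library left out. That of the effective number of segments ran from -1.13 to -0.16, and was -0.45 by Shannon entropy, -0.03 by rarefied number and -0.20 without Igkv4-55 and Igkv5-39, the last added after seeing the data. The distal share difference was -9.24 percentage points, and -7.07 without these segments. Depth limits single segments: 75 members with a count were too low to be tested. The cause of these changes was not tested where no value above shows it.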

Other observations

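The immunoglobulin heavy chain variable segments (Ighv genes), the partners of the kappa segments in an antibody, gave 311, 452 and 445 counts in Nfkb2-/- replicates 1, 2 and 3 and 365, 669 and 650 in wild type, or 25.7, 31.8 and 36.2 CPM and 19.6, 52.8 and 54.5 CPM. As with the kappa segments, wild-type replicate 1 was the lowest of the 6 libraries and wild-type replicates 2 and 3 the highest. Ighv1-53 was the largest heavy chain segment in 5 libraries, with 67, 192 and 70 counts in Nfkb2-/- and 50, 74 and 5 in wild type. It was chosen after its values were seen. In Nfkb2-/- replicate 2 it held 42.5% of Ighv counts, against 15.7% to 21.5% in the other Nfkb2-/- libraries and 0.769% to 13.7% in wild type. This is the library in which Igkv4-55 held 37.4% of Igkv counts, and in wild-type replicate 3 both segments were at their lowest shares. The effective number of Ighv segments was 15.4, 5.29 and 18.8 in Nfkb2-/- and 16.5, 29.1 and 22.6 in wild type, lowest and highest in the same libraries as for the kappa segments. Bulk counts do not show which heavy and light chains come from the same cell.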
